A study of Mus musculus with 20 samples.

Results

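The genes described here are 10 mouse genes of the heat shock and chaperone system: Hspa1a, Hspa1b, Hspa8, Hspb1, Hsph1, Hspe1, Hspd1, Hsp90aa1, Dnajb1 and Dnaja1. They were chosen by name, as the rows whose Ensembl identifier carries one of these symbols, and all 10 were present among the 47729, 54532 and 55487 genes of the 3 count tables. RNA was sequenced from cDC1s, the XCR1+ dendritic cells that present antigen to CD8 T cells, in 20 libraries of 8 groups. The study asked how cDC1s take on tolerogenic properties and what the erythropoietin receptor (EpoR, gene Epor) does in them. The treatment set compared XCR1+CD8a+ cDC1s sorted from C57BL/6 wild-type mice on day 15 of TLI/ATS (total lymphoid irradiation with anti-thymocyte serum) with those of untreated mice (n = 2 each). The EpoR set compared EpoR+ with EpoR- cDC1s of EpoR-tdTomato reporter mice, all of which had received TLI/ATS and were taken on day 15 (n = 2 each). The tissue set held CCR7+XCR1+ spleen cDC1s lacking SIRPa, and migratory cDC1s of peripheral lymph nodes, of Epor-Xcr1-Cre cKO mice and of Epor flox/flox controls (n = 3 in each of 4 groups). The Cre of the cKO is driven by Xcr1, so deletion is aimed at XCR1+ cells and not at other cells, and the labels do not say whether controls carried Cre. Age, sex and pooling of animals are not given in the sources used here, nor whether replicates came from separate animals, so p-values measure the spread between these libraries, which may be technical.

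Heat shock proteins bind unfolded or partly folded proteins and keep them from clumping until they fold or are degraded. HSP70 proteins (Hspa1a, Hspa1b, Hspa8) take clients from J-domain partners (Dnajb1, Dnaja1) and are recharged by nucleotide exchange factors such as Hsph1, while HSP90 (Hsp90aa1) finishes kinases and receptors, Hspb1 holds unfolded clients without ATP, and Hspd1 with its lid Hspe1 folds proteins inside mitochondria. The transcription factor HSF1 drives most of these genes after heat or other proteotoxic stress by binding heat shock elements, arrays of short inverted repeats, in their promoters, and Hspa1a and Hspa1b are the strongly inducible HSP70 genes whereas Hspa8 is made constantly. In dendritic cells, HSP70 and HSP90 are known to carry peptides in antigen processing. Cell isolation at raised temperature is known to induce some of the same genes, together with immediate early genes such as Fos and Jun.

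The promoters of the 5 members that passed the test between cKO and control in either tissue are shown with their heat shock elements. That choice follows edgeR's threshold, and other members were also lower in cKO without overlap. The element searched was a pair of facing units, GAANNTTC or TTCNNGAA, each of which reads the same on both strands, in the 250 bases before each RefSeq start (GRCm38.p6). The 130 bases next to the start are printed 5′ to 3′ on the gene's strand, with matches in capitals. They lie at chr17:34972157-34972286 (minus strand, Hspa1a), chr17:34959239-34959368 (minus strand, Hspa1b), chr5:135887789-135887918 (plus strand, Hspb1), chr5:149636337-149636466 (minus strand, Hsph1) and chr1:55088018-55088147 (plus strand, Hspe1).
Hspa1a: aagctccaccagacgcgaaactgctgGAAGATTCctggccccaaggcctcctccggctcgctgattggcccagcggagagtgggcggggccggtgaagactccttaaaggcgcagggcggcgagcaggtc
Hspa1b: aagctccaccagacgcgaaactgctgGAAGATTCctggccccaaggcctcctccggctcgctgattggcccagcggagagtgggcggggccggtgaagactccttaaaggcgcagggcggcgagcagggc
Hspb1: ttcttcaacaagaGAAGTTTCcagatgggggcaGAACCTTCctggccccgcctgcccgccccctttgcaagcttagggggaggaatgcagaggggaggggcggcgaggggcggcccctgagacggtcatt
Hsph1: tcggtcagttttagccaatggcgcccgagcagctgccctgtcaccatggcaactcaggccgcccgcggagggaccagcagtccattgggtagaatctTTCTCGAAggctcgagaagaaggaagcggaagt
Hspe1: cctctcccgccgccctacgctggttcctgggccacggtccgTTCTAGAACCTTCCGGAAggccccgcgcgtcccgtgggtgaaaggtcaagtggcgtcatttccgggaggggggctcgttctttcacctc

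Of the 8 members with a promoter window in the RefSeq table, 7 held at least 1 match in a window, where 14.5% of 27025 mouse genes in the table (12.8% of 32851 windows) did. Dnajb1 had none, and Hspa8 and Hsp90aa1 are named only. Dnajb1 was lower in cKO without overlap in spleen (log2 difference -0.37 ± 0.09) and lymph node (-0.35 ± 0.09). Both differences were short of edgeR's threshold and passed with DESeq2. The matches of Hspa1a and Hspa1b start 104 bases before the transcript start, those of Hspb1 117 and 97 bases, that of Hsph1 33 bases and that of Hspe1 89 bases before it. The Hspe1 match is 1 run of 18 bases made of 3 overlapping matches of the pair. The run holds, and is longer than, an array of 3 alternating units, which was found in 0.466% of windows. Hspd1, which lies head to head with Hspe1, holds the same 18 bases read from the other strand. A match is a description of these letters and not a measured binding site.

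**Figure D1:**
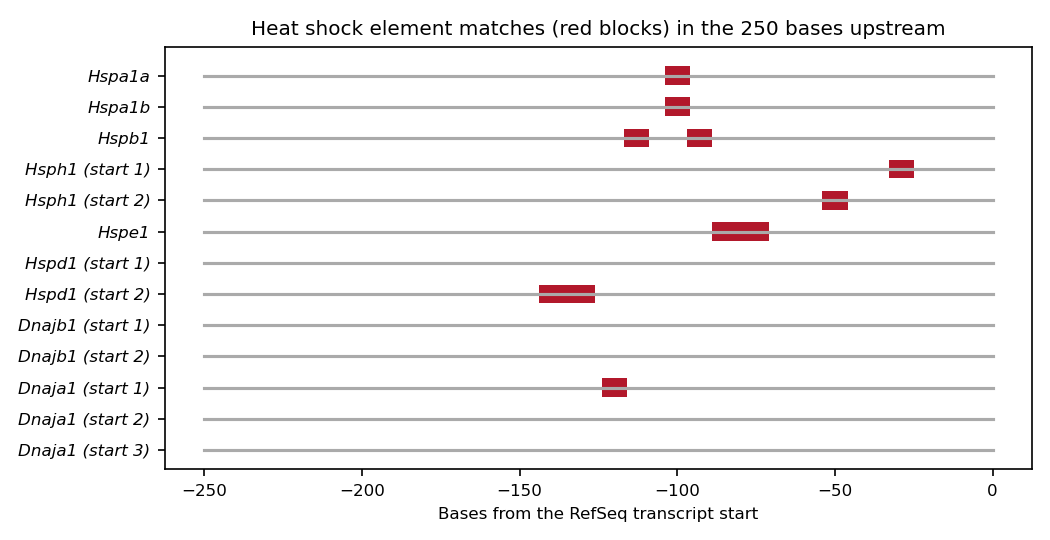
Positions of heat shock element matches (red blocks, drawn to scale) in the 250 bases upstream of each annotated start of the 8 members with a promoter window (horizontal axis, bases from the start). The matches of Hspa1a and Hspa1b start at the same distance, 104 bases, and no window of Dnajb1 holds one.

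Hspa1a (ENSMUSG00000091971; chromosome 17, 34969190 to 34972156, minus strand of GRCm38) and Hspa1b (ENSMUSG00000090877; chromosome 17, 34956436 to 34959238, minus strand) are near-identical neighbours, each made of 1 exon. Their coding sequences differ at 8 of 1923 aligned bases (99.58% identity), and 47.1% of all 100-base stretches of Hspa1a and 49.9% of those of Hspa1b also occur in the other. Reads from these stretches cannot be told apart, and 564 exonic bases of Hspa1a (19%) lie under Gm20481 on the plus strand in tables counted without strand, so each gene's own count is uncertain. The ratio of Hspa1b to Hspa1a counts ran from 0.758 to 0.923 over libraries of the treatment set, from 1.47 to 2.22 in the EpoR set and from 1.19 to 1.6 in the tissue set. Among the other members, some 100-base stretches also occurred, on either strand, in other annotated genes. These were 44% of the stretches of Hspb1, 38% of Hsp90aa1, 28.5% of Hspa8, 23.9% of Hspd1, 16.6% of Dnaja1 and 11% of Hspe1. Hsph1 and Dnajb1 had none. Hspe1 and Hspd1 overlap by 112 exonic bases on opposite strands.

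Total counts per library ran from 40583507 to 77570149 in the treatment set, 33660774 to 40127646 in the EpoR set and 26618029 to 49700660 in the tissue set, and a floor of 3 counts stands for 0.0387 to 0.113 CPM, the usual unit in which each count is scaled to the total of its library. The libraries carry no molecular identifiers, so floors cover counting error only. No library was a copy of another. The 2 TLI/ATS libraries stood further apart (chi-square per degree of freedom over genes 294.4) than the 2 untreated libraries (15.8). Both TLI/ATS libraries lay nearer to the untreated libraries (160.2 to 221.9) than to each other. This statistic grows with depth, and the TLI/ATS libraries were the deepest. In the tissue set, spleen control replicate 3 stood apart from the other 2 (141.8 and 164.2, against 31.8 between them), and so did replicate 2 of the lymph node cKO (76.8 and 88.2, against 14.2) and of the lymph node controls (83.9 and 92.5, against 39.0). Each of these libraries lay nearer to libraries of the other genotype in its tissue: spleen control replicate 3 to the 3 spleen cKO libraries (30.3 to 56.4), lymph node control replicate 2 to lymph node cKO replicates 1 and 3 (42.0 and 36.6), and lymph node cKO replicate 2 to lymph node control replicate 3 (38.6). Epor had 3.04 and 1.89 CPM after TLI/ATS and 0 CPM in both untreated libraries, and 14.1 and 17.3 CPM in EpoR+ against 0.0997 and 0.327 CPM in EpoR- cDC1s. In lymph nodes Epor was at 0 in all 3 cKO libraries and at 0.588, 0.682 and 0.108 CPM in controls, whereas in spleen it was at 0, 0.0621 and 0 CPM in cKO and 0.028, 0 and 0.169 CPM in controls, so the spleen counts give no check of the deletion. Xcr1, the gene of the sort marker, was detected in every library, between 20.5 and 1139 CPM.

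Per length, Hspa8, the constantly made HSP70, was the highest member in EpoR+, EpoR- and lymph node cDC1s of both genotypes and in spleen cKO cDC1s, with a mean of 588 ± 132 RPKM in EpoR+, 817 ± 89.8 in EpoR- (SD, n = 2 each), 469 ± 22.2 in lymph node cKO and 540 ± 28.6 RPKM in lymph node control cDC1s (SD, n = 3 each). In spleen the inducible Hspa1b reached the same range, at 457 ± 28.9 RPKM in cKO cDC1s beside 474 ± 3 for Hspa8, and at 570 ± 35.2 RPKM in control cDC1s beside 503 ± 23.7 for Hspa8 (SD, n = 3 each). Between Hspa1b and Hspa8 in spleen cKO the libraries overlapped (425 to 480 and 471 to 477 RPKM), so their order there does not exceed the spread. Hspb1 was the lowest member in EpoR+, EpoR-, spleen cKO and both lymph node groups, at 4.51 RPKM in EpoR+ and 3.02 in EpoR-, 22.3 in spleen cKO, 7.54 in lymph node cKO and 11.2 RPKM in lymph node control cDC1s. In spleen control cDC1s, where Dnaja1 was lowest at 30.8 ± 2.34 RPKM, Hspb1 stood at 44.2 ± 4.4 RPKM. That order rests on the exonic lengths used, 8629 bases for Dnaja1 and 1031 for Hspb1. In CPM Dnaja1 was the higher of them there, at 266 ± 20.2 against 45.5 ± 4.54 CPM. The treatment set has no gene lengths in its table, and its levels are given in CPM alone.

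**Figure D2:**
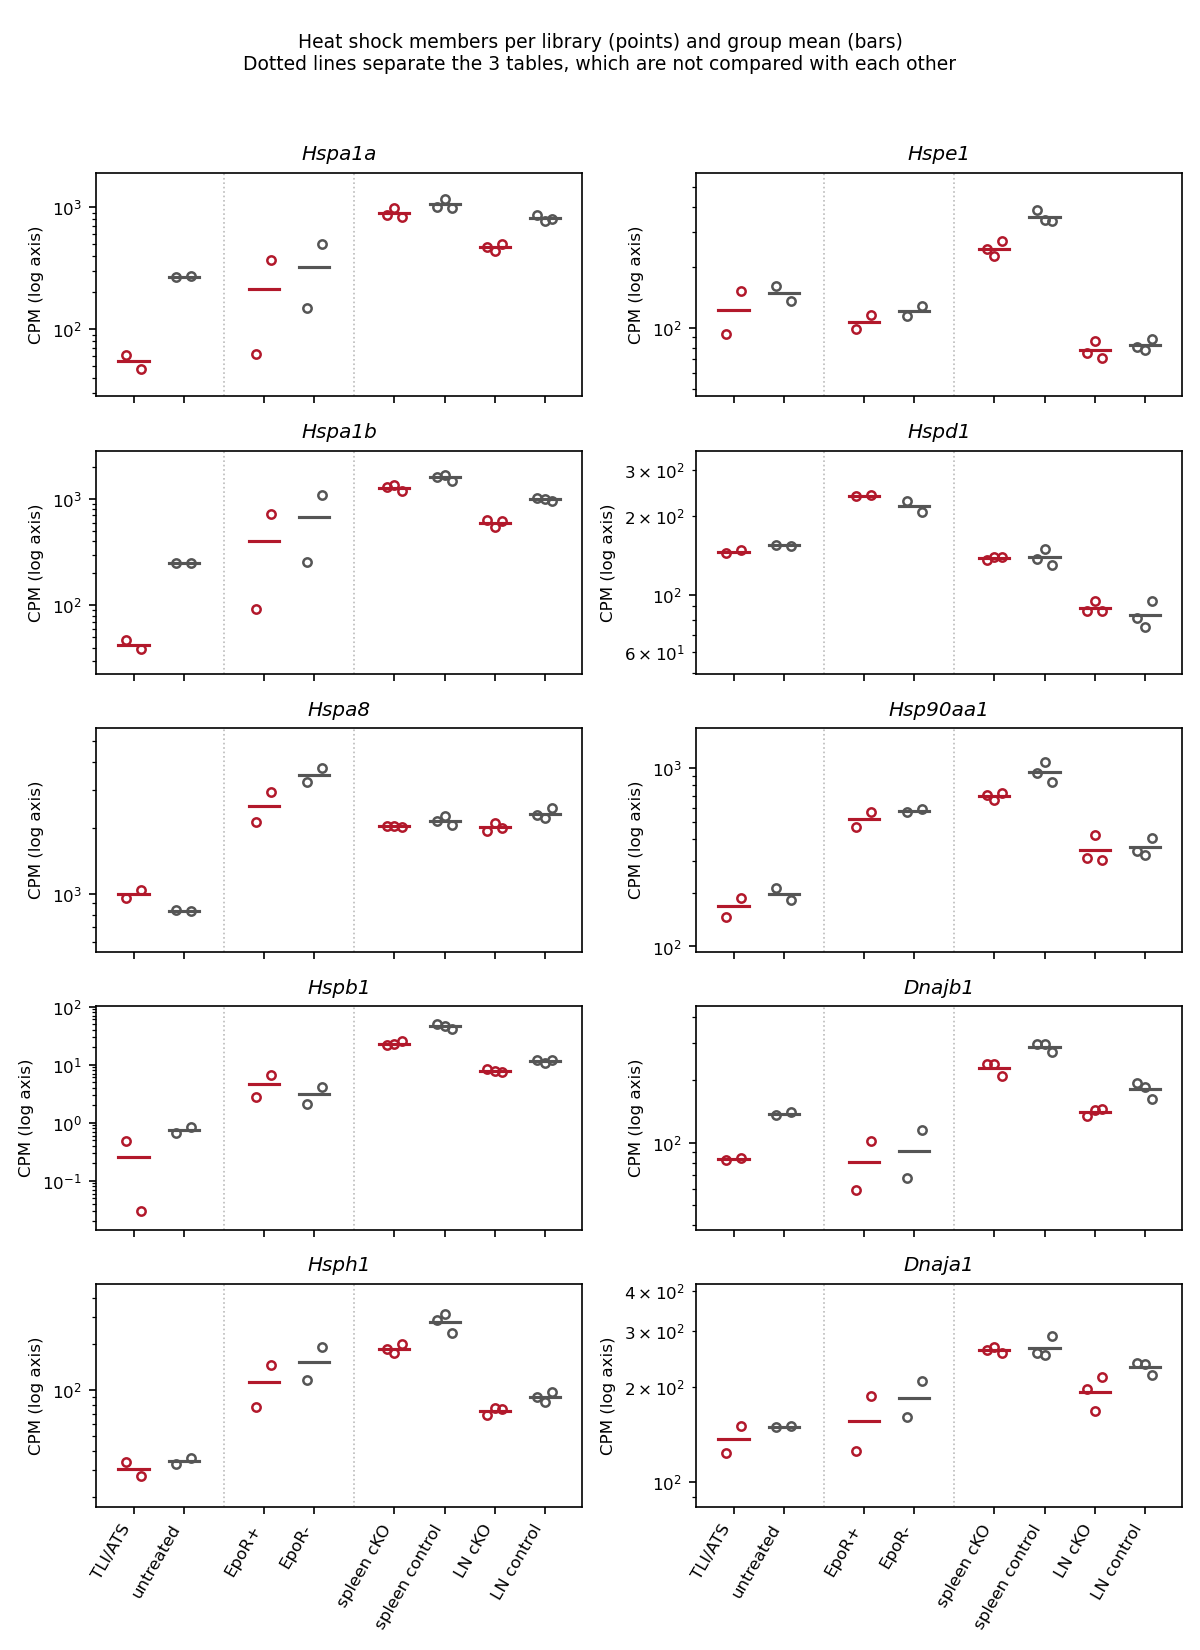
CPM of the 10 members in all 20 libraries (open points, logarithmic vertical axis) with the group mean (bar), red for TLI/ATS, EpoR+ and cKO and grey for untreated, EpoR- and control; dotted lines separate the sets, between which levels are not compared. Hspa1a and Hspa1b lie lower with no overlap after TLI/ATS than untreated, and in cKO than in control of both tissues. In the EpoR set the libraries of 1 group lie far apart.

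After TLI/ATS, cDC1s held far less inducible HSP70 RNA than untreated cDC1s, and no difference of another member passed the test. Hspa1a had 61.4 and 46.9 CPM in TLI/ATS libraries, against 269 and 270 CPM in untreated libraries. Hspa1b had 46.6 and 38.7 CPM after TLI/ATS, against 248 and 249 CPM in untreated libraries. For both genes the TLI/ATS libraries lay several-fold under the untreated ones, with no overlap. Hspa1a fell by 2.20 ± 0.18 on the log2 scale (SE; adjusted p = 0.00935) and Hspa1b fell by 2.42 ± 0.17 (adjusted p = 0.0064, edgeR's quasi-likelihood test and Benjamini-Hochberg adjustment, n = 2 each). Summed to 1 row, because their reads are hard to part, they fell by 2.30 ± 0.17 (adjusted p = 0.00735, same test). That is 2 of 10 members lower and 0 higher, though these 2 are not separate measurements. Of the 17236 genes tested, 2.20% were lower and 0.499% higher. The median over the 10 members was -0.11, beside 0.02 over all genes tested. In these sorted bulk samples, fewer cells of a type and less RNA per cell cannot be told apart.

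The partners of HSP70 did not follow it past the threshold. Dnajb1, the J-domain protein that hands clients to inducible HSP70, had 82.4 and 84.3 CPM after TLI/ATS and 136 and 140 CPM in untreated libraries (log2 difference -0.60 ± 0.16, adjusted p = 0.162, edgeR's quasi-likelihood test). Its groups did not overlap either. The constitutive Hspa8 had 956 and 1042 CPM after TLI/ATS and 840 and 831 CPM untreated (0.39 ± 0.17, adjusted p = 0.371, same test). Its CPM lay higher without overlap, but the difference did not pass the test. Hspb1 stood near the floor, with 0.49 and 0.0297 CPM after TLI/ATS and 0.671 and 0.838 CPM untreated. Hsph1, Hspe1, Hspd1, Hsp90aa1 and Dnaja1 differed by -0.13 to 0.04 on the log2 scale, with adjusted p from 0.909 to 0.995 by the same test. Hsf1 (-0.20 ± 0.16) and the co-chaperone gene Bag3, an HSF1 target (0.07 ± 0.23), did not pass it. In CPM, 5 of 10 members lay lower with no overlap, where 31.4% of genes tested did.

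With only 1 TLI/ATS library in the fit, 5 members passed the test instead of 2, and over all genes 4908 (without replicate 1) and 4679 (without replicate 2) were called instead of 465. In these fits the spread comes from the 2 untreated libraries alone. Without TLI/ATS replicate 1, Hspa8 differed by 0.52, Hspb1 by -4.36 and Dnajb1 by -0.51. That Hspb1 value rests on 2 counts in TLI/ATS replicate 2, under the floor of 3 counts. Without TLI/ATS replicate 2, Hspa8 differed by 0.25, Hspe1 by -0.62 and Dnajb1 by -0.69. With any 1 of the 4 libraries left out, Hspa1a stayed between -2.32 and -2.08 and Hspa1b between -2.48 and -2.36.

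Markers of other cells moved with the treatment. All 9 T cell markers and all 7 B cell markers were lower, with summed levels of 16.4 to 26.4 and 39.4 to 48.6 CPM after TLI/ATS against 686 to 694 and 573 to 588 CPM in untreated libraries. All 7 erythroid markers (1298 to 1469 against 214 to 223 CPM) and 9 of 12 macrophage markers (936 to 1453 against 199 to 218 CPM) were higher, and no marker of these 4 lists was at 0 in a whole group. Plasmacytoid dendritic cell markers were lower for 3 of 5 (228 to 234 against 951 to 964 CPM). Immediate early genes, of which 0 of 22 passed edgeR's test (5 with an unadjusted p under 0.05, 2 called by DESeq2), summed to values from 17217 to 21421 CPM after TLI/ATS and from 19723 to 20067 CPM untreated. Of 94 tested genes of 6 wider chaperone lists, 0 passed edgeR's test (11 with an unadjusted p under 0.05, 1 called by DESeq2). Over all 17236 genes tested, 2705 had an unadjusted p under 0.05. The part of the marker differences in the HSP70 result was not tested.

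In EpoR+ cDC1s no member passed the test against EpoR- cDC1s in the reported fit, which does not use the replicate numbers. With a term for the replicate number (a replicate block), Hspa8, Hsph1 and Dnaja1 passed. The labels do not say whether same-numbered libraries are paired. For the inducible HSP70 pair the libraries of each fraction differed more from each other than the fractions did. Hspa1a had 62.2 and 366 CPM in EpoR+ replicates 1 and 2, against 148 and 494 CPM in EpoR- replicates 1 and 2. Hspa1b had 91.5 and 715 CPM in EpoR+ replicates 1 and 2, against 257 and 1094 CPM in EpoR- replicates 1 and 2. Replicate 2 was high and replicate 1 low in both fractions, by 5.88-fold (EpoR+) and 3.33-fold (EpoR-) for Hspa1a and by 7.81-fold and 4.26-fold for Hspa1b, so the groups overlapped. Within replicate 1 the EpoR+ level was 0.42 of the EpoR- level for Hspa1a and 0.356 for Hspa1b, and within replicate 2 it was 0.741 and 0.653. The fits gave -0.60 ± 1.13 for Hspa1a and -0.76 ± 1.31 for Hspa1b on the log2 scale (adjusted p = 0.805 and 0.784, edgeR's quasi-likelihood test, n = 2 each), with an SE larger than the difference in both.

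Smaller shifts between the replicates, in the same direction, ran through several other members. Hsph1 was 1.88-fold (EpoR+) and 1.63-fold (EpoR-) higher in replicate 2 than in replicate 1, Dnajb1 1.72-fold and 1.7-fold, and Hspb1 2.34-fold and 1.94-fold. Hspd1 was not among them, at 1.01-fold in EpoR+ and 0.907-fold in EpoR- cDC1s. By the smaller of both shifts, Hspa1b ranked 17 and Hspa1a 34 among 9397 genes; the genes at the top, named here after their values were seen, were Nr4a2, Grasp and Fosl2. Among immediate early genes, Jun was 1.89-fold (EpoR+) and 1.57-fold (EpoR-) higher in replicate 2. Fos stood at 1.17-fold and 0.906-fold, and Egr1 at 1.21-fold and 0.533-fold. The 22 immediate early genes summed to 8405 to 14732 CPM in EpoR+ and 8967 to 11902 CPM in EpoR- libraries. The labels do not say what the replicate number marks.

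**Figure D3:**
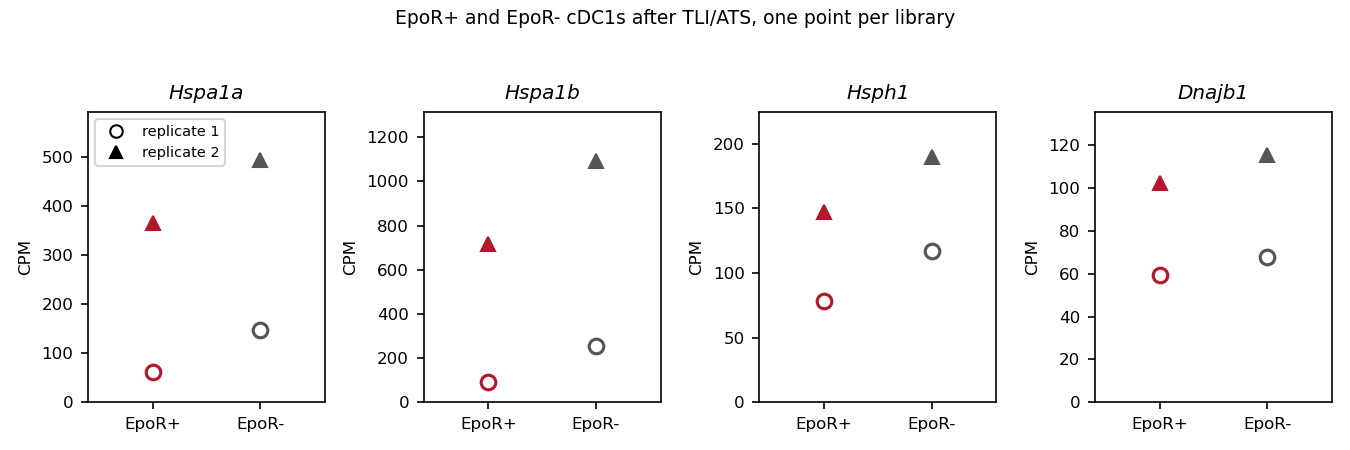
CPM of Hspa1a, Hspa1b, Hsph1 and Dnajb1 in the 4 libraries of the EpoR set (vertical axes start at 0), EpoR+ in red left of EpoR- in grey, circles for replicate 1 and triangles for replicate 2. Each triangle lies above the circle of its own fraction, and in each replicate the EpoR+ point lies below the EpoR- point.

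Without the replicate block, 0 of the 10 members were called in either direction. Over the 15627 genes tested, 11.9% were higher and 4.75% lower in EpoR+ cDC1s. In that fit 1 member, Hspa8, had an unadjusted p under 0.05, as did 4677 of the 15627 genes, and DESeq2 called the same 1. Hspa8 had 2127 and 2928 CPM in EpoR+ and 3242 and 3788 CPM in EpoR- libraries, with no overlap (-0.49 ± 0.17, adjusted p = 0.132, edgeR's quasi-likelihood test; -0.53, adjusted p = 0.0375, DESeq2). Hsp90aa1 also lay lower without overlap, at 470 and 564 CPM against 566 and 589 CPM (-0.18 ± 0.12), which makes 2 of 10 members where 25.1% of genes did so. The median over members was -0.24, beside 0.02 over all genes. Hspd1 had 238 and 240 CPM in EpoR+ and 229 and 208 CPM in EpoR- libraries (0.11 ± 0.11). Without EpoR+ replicate 2, Hspa8 passed the test (-0.73, adjusted p = 0.0281).

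Of 95 tested genes of 6 wider chaperone lists, 2 were higher and 2 lower in EpoR+ cDC1s, smaller shares than the 11.9% and 4.75% over all genes. Hspa4l, a nucleotide exchange factor of the HSP110 family like Hsph1, had 33.7 and 39.1 CPM in EpoR+ against 15.6 and 14 CPM in EpoR- libraries and was higher (1.28 ± 0.16, adjusted p = 0.00588, edgeR's quasi-likelihood test). Dnajb4, a J-domain relative of Dnajb1, was higher as well, at 9.62 and 17.6 CPM against 2.64 and 2.35 CPM (2.43 ± 0.36, adjusted p = 0.00977, same test), and Dnajc8 (-0.58) and Dnajc2 (-0.46) were lower. These were 1 of 31 tested genes of the HSF1 circuit and cytosolic co-chaperones and 3 of 20 J-domain genes. Of the TRiC and prefoldin list 0 of 14 passed (5 with an unadjusted p under 0.05, 1 by DESeq2), of mitochondrial chaperones and proteases 0 of 14 (2, and 0 by DESeq2), of ER chaperones 0 of 12 (3, and 0 by DESeq2) and of small heat shock proteins 0 of 4 (1, and 0 by DESeq2). Over all 15627 genes tested, 4677 had an unadjusted p under 0.05. Of 22 immediate early genes 1 was lower, Btg2 (-0.74). Bag3 (0.55 ± 0.24) and Hsf1 (-0.19 ± 0.22) did not. All 12 macrophage markers were higher in EpoR+ cDC1s (summed 20790 to 20828 CPM against 282 to 290 CPM) and 12 of 13 cDC1 markers lower (8540 to 9937 against 17790 to 19182 CPM). All 7 erythroid markers (1627 to 2014 against 155 to 249 CPM) and 4 of 6 cDC2 markers (1861 to 1915 against 45 to 50.7 CPM) were higher as well. Their part in these differences was not tested.

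Spleen cDC1s of cKO mice held less Hspb1, Hsph1 and Hspe1 RNA than those of control mice. Hspb1, the small heat shock protein, had 21.5, 22.4 and 25.1 CPM in spleen cKO libraries, against 49.8, 46.0 and 40.8 CPM in spleen control libraries. Hsph1 had 185, 176 and 199 CPM in cKO, against 287, 312 and 236 CPM in control libraries. Hspe1 had 246, 227 and 271 CPM in cKO, against 386, 345 and 339 CPM in control libraries. In each of these genes every cKO library lay under every control library. The log2 differences were -1.02 ± 0.14 for Hspb1 (adjusted p = 0.00291), -0.61 ± 0.09 for Hsph1 (adjusted p = 0.00536) and -0.56 ± 0.09 for Hspe1 (adjusted p = 0.00819, edgeR's quasi-likelihood test and Benjamini-Hochberg adjustment, n = 3 each). That is 3 of 10 members lower and 0 higher, where 0.121% of the 17362 genes tested were lower and 0.490% higher.

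Most other members had lower values too, without passing the test. Hspa1b had 1309, 1346 and 1191 CPM in spleen cKO and 1623, 1682 and 1489 CPM in control libraries (-0.36 ± 0.08, adjusted p = 0.0509, edgeR's quasi-likelihood test). Hspa1a had 870, 982 and 828 CPM in cKO and 1012, 1160 and 993 CPM in control libraries (-0.28 ± 0.09, adjusted p = 0.176, same test). Hsp90aa1 had 707, 663 and 722 CPM in cKO and 938, 1077 and 831 CPM in control libraries (-0.48 ± 0.10, adjusted p = 0.0527, same test). None of these 3 genes overlapped between the groups, and with Dnajb1 (-0.37 ± 0.09) and Hspa8 (-0.12 ± 0.06) that made 8 of 10 members lower without overlap, where 5.44% of genes did so. Dnaja1 (-0.06 ± 0.11) and Hspd1 (-0.05 ± 0.09) overlapped. Hspd1, the barrel whose lid is Hspe1, had 136, 139 and 139 CPM in cKO and 137, 150 and 130 CPM in controls. The median over members was -0.36, beside 0.00 over all genes tested. Hsf1 stood at 22.2, 26.7 and 16.2 CPM in cKO and at 8.1, 13.5 and 10.3 CPM in control libraries, with no overlap (0.99 ± 0.22, adjusted p = 0.0528, same test; 0.00168, DESeq2).

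The calls in spleen sat close to the threshold. Without spleen cKO replicate 2 only Hspb1 stayed past it (Hsph1 at adjusted p = 0.0576 and Hspe1 at 0.0819, edgeR's quasi-likelihood test), and without spleen cKO replicate 1 Hspe1 missed it (0.0739). With no filter on low counts and with DESeq2, 6 members passed, Hspa1b, Hsp90aa1 and Dnajb1 joining the 3. Without spleen control replicate 3, the library that stood apart, the 3 genes differed by -1.02 (Hspb1), -0.64 (Hsph1) and -0.52 (Hspe1), and Hsp90aa1 passed as well. Of the plasma cell markers, 3 of 6 were higher in spleen cKO (summed 2310 to 2585 CPM against 1017 to 1184 CPM in controls), and summed neutrophil markers, none of which passed, ran from 45.3 to 54 against 25.6 to 27.6 CPM. Macrophage markers, of which 1 of 11 tested was lower (Spic, -0.76), summed to 210 to 229 CPM in cKO and 251 to 276 CPM in controls, and erythroid markers, none of which passed, to 58.7 to 65 against 85.8 to 104 CPM. The cDC1 markers summed to 4466 to 4654 CPM in cKO and 4389 to 4600 CPM in controls. Immediate early genes, with 0 of 22 past edgeR's test (3 with an unadjusted p under 0.05, 1 called by DESeq2), summed to 16770 to 18164 CPM in cKO and 17110 to 17600 CPM in controls. Of 96 tested genes of the 6 wider chaperone lists, 0 passed edgeR's test (24 with an unadjusted p under 0.05, 6 called by DESeq2). Over all 17362 genes tested, 2255 had an unadjusted p under 0.05. The part of the marker differences in the heat shock result was not tested.

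In lymph node migratory cDC1s the members that passed the test between cKO and control were the inducible HSP70 pair, lower in cKO. The pair also lay lower without overlap in spleen cKO, short of the threshold. Hspa1a had 475, 434 and 495 CPM in lymph node cKO libraries, against 860, 773 and 807 CPM in lymph node control libraries. Hspa1b had 632, 548 and 619 CPM in cKO, against 1027, 1002 and 963 CPM in control libraries. The highest cKO library lay well under the lowest control library for both genes. The log2 differences were -0.78 ± 0.09 for Hspa1a (adjusted p = 0.000129) and -0.72 ± 0.08 for Hspa1b (adjusted p = 9.96e-05, edgeR's quasi-likelihood test and Benjamini-Hochberg adjustment, n = 3 each). Summed to 1 row they fell by 0.75 ± 0.08 (adjusted p = 5.76e-05, same test). This is 2 of 10 members lower and 0 higher, where 0.167% of the 17362 genes tested were lower and 0.288% higher. Because reads of these 2 genes are hard to part, they are not 2 separate measurements. Both genes passed with each of the 6 libraries left out in turn, at -0.85 to -0.71 for Hspa1a and -0.77 to -0.64 for Hspa1b. Without the control library that stood apart they differed by -0.81 and -0.71, and without the cKO library that stood apart by -0.71 and -0.64.

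Of the remaining members in lymph nodes, Hspb1 (8.38, 7.61 and 7.34 CPM in cKO, against 12, 10.7 and 12 CPM in controls) and Dnajb1 (134, 144 and 145 against 193, 186 and 162 CPM) were lower without overlap but short of the threshold, at -0.56 ± 0.14 and -0.35 ± 0.09 (adjusted p = 0.16 and 0.152, edgeR's quasi-likelihood test). With DESeq2 both passed, for 4 members in all, and Dnajb1 did without lymph node control replicate 3 (-0.43, adjusted p = 0.0403, edgeR's quasi-likelihood test). Hspa8 (-0.19), Hsph1 (-0.29) and Dnaja1 (-0.24) also lay lower without overlap, which with the HSP70 pair makes 7 of 10 members where 8.85% of genes did so; Hspe1 (-0.07), Hsp90aa1 (-0.04) and Hspd1 (0.10) overlapped. The median was -0.26, beside 0.00 over all genes tested.

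Among 22 immediate early genes 2 were lower: Jun, with 465, 382 and 452 CPM in cKO against 789, 916 and 639 CPM in controls (-0.84 ± 0.13, adjusted p = 0.00574, edgeR's quasi-likelihood test), and Fos, with 632, 638 and 645 CPM against 943, 863 and 909 CPM (-0.49 ± 0.07, adjusted p = 0.00108, same test). The 22 genes summed to 12043 to 13058 CPM in cKO and 12950 to 14467 CPM in controls. Hsf1 (-0.14 ± 0.21) and Bag3 (0.01 ± 0.13) did not pass. Of the markers, 2 of 13 cDC1 genes were higher (Clec9a 0.62 and Cd8a 0.51), and no marker of another cell type passed; T cell markers summed to 209 to 236 CPM in cKO and 277 to 289 CPM in controls. The part of the immediate early genes and T cell markers in the HSP70 result was not tested.

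The members called in spleen and those called in lymph nodes were not the same genes. Yet no member's cKO effect was shown to differ between the tissues. The difference of the cKO effect, lymph node minus spleen, was called for 0 of 10 members by edgeR's quasi-likelihood test, where 0.127% of genes were called higher and 0.190% lower; 6 members had an unadjusted p under 0.05, as did 2173 of the 17362 genes tested, and DESeq2 called 2 members and 507 genes in all. Hspa1a had a difference of -0.51 ± 0.12 (adjusted p = 0.0988, edgeR's quasi-likelihood test; 0.0207, DESeq2) and Hspe1 one of 0.49 ± 0.13 (0.125 and 0.0302). Hspb1 (0.46 ± 0.20), Hsp90aa1 (0.43 ± 0.15) and Hsph1 (0.32 ± 0.13) had differences in the direction of Hspe1, and Hspa1b (-0.37 ± 0.11) in that of Hspa1a. Hspa8, Hspd1, Dnajb1 and Dnaja1 lay between -0.18 and 0.15. Hsf1, higher in CPM in spleen cKO but not in lymph node cKO, had a difference of -1.13 ± 0.30 (adjusted p = 0.138, edgeR's quasi-likelihood test).

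**Figure D4:**
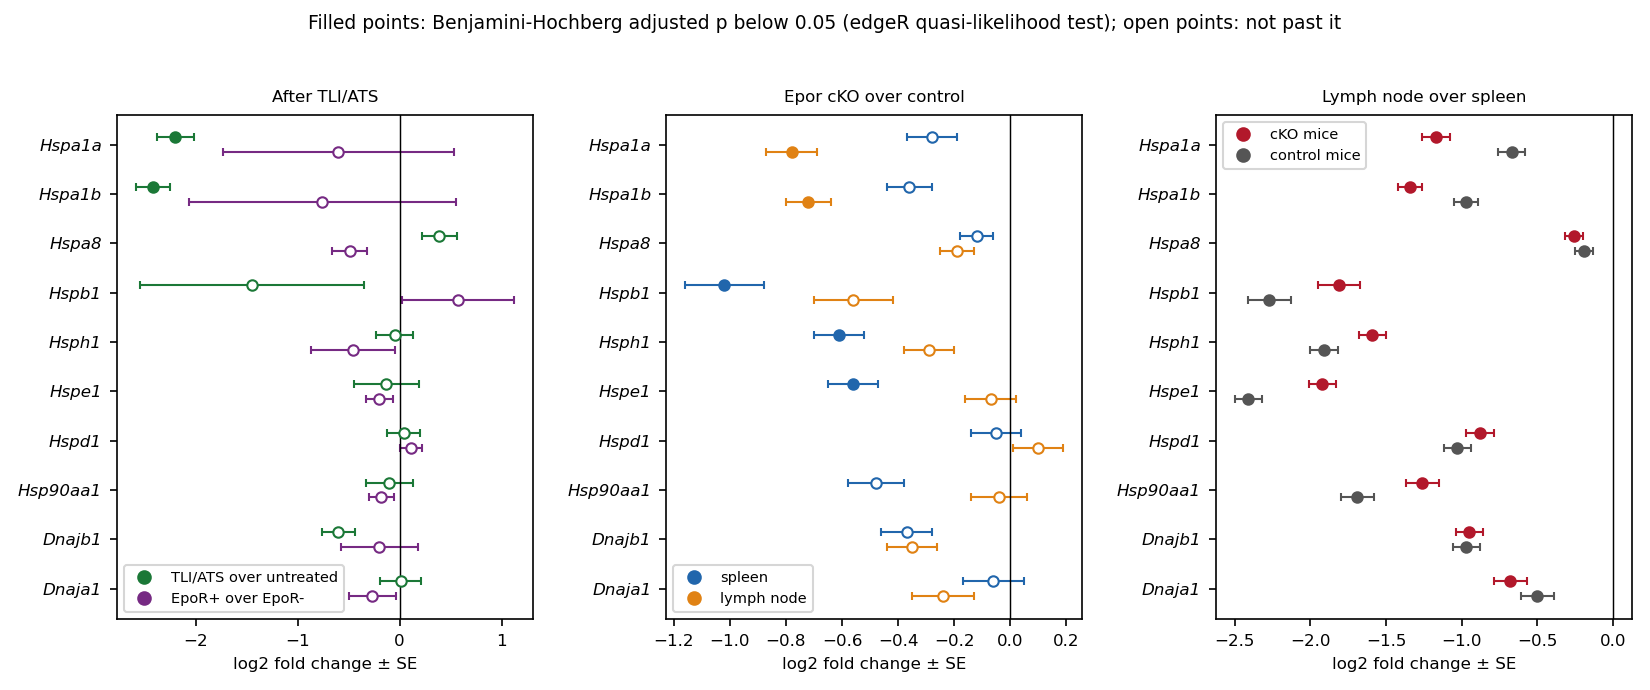
Log2 fold changes (points) with standard errors (bars) of the 10 members for TLI/ATS over untreated and EpoR+ over EpoR- (left), cKO over control in spleen and lymph node (middle) and lymph node over spleen in cKO and control mice (right); filled points passed the adjusted threshold. Called members are Hspa1a and Hspa1b after TLI/ATS and in lymph node cKO, Hspb1, Hsph1 and Hspe1 in spleen cKO, and all 10 between the tissues; the horizontal scales differ between panels.

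Migratory cDC1s of the lymph node held less RNA of every member than CCR7+ cDC1s of the spleen, Hspa8 depending on the scaling, with the largest differences for the mitochondrial lid Hspe1, the small heat shock protein Hspb1 and the HSP70 exchange factor Hsph1. In cKO mice Hspe1 had 75.4, 86.1 and 71.2 CPM in lymph node, against 246, 227 and 271 CPM in spleen libraries. In control mice it had 80.5, 77.9 and 87.8 CPM in lymph node, against 386, 345 and 339 CPM in spleen libraries. The tissues did not come near each other in either genotype. Hspe1 fell by 1.92 ± 0.09 in cKO (adjusted p = 7.42e-10) and fell by 2.41 ± 0.09 in control mice (adjusted p = 6.53e-11, edgeR's quasi-likelihood test and Benjamini-Hochberg adjustment, n = 3 each). Hspb1 differed by -1.81 ± 0.14 in cKO and -2.27 ± 0.14 in control mice, and Hsph1 by -1.59 ± 0.09 and -1.91 ± 0.09.

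In cKO mice 10 of 10 members were lower, where 15.3% of genes tested were lower and 14.1% higher, and in control mice 10 of 10, where 20.3% were lower and 21.0% higher. The members' median was -1.22 in cKO and -1 in control mice, beside 0.00 and -0.01 over all genes. Hsp90aa1, which matures kinases and receptors, differed by -1.26 in cKO and -1.69 in control mice, Hspd1 by -0.88 and -1.03, and Dnajb1 by -0.95 and -0.97. The inducible pair differed by -1.17 (Hspa1a) and -1.34 (Hspa1b) in cKO and by -0.67 and -0.97 in control mice, and Dnaja1 by -0.68 and -0.50. In CPM, 9 of 10 members lay lower without overlap in each genotype, where 17.8% of genes in cKO and 16.4% in control mice did so. The exception was Hspa8, with 1927, 2117 and 2008 CPM in lymph node and 2038, 2051 and 2025 CPM in spleen libraries of cKO mice, and 2287, 2223 and 2461 CPM in lymph node and 2146, 2270 and 2069 CPM in spleen libraries of controls. After TMM scaling (factors 1.06 to 1.13 in lymph node and 0.837 to 0.936 in spleen) Hspa8 differed by -0.26 ± 0.06 in cKO and -0.19 ± 0.06 in control mice and passed the test, but scaled by total counts alone it stood at -0.02 (adjusted p = 0.88) and 0.10 (adjusted p = 0.193, edgeR's quasi-likelihood test). Total-count scaling moved the median of all genes by 0.25 in cKO and 0.29 in control mice and the calls over all genes to 3996 higher and 1752 lower in cKO, against 2454 and 2653 by TMM, and to 5273 and 2408 in controls, against 3651 and 3518; 9 and 8 members were then still called lower, Dnaja1 in controls being the other exception (-0.21, adjusted p = 0.0852, same test). In controls Hspa8 also missed the threshold with any of 4 single libraries left out (spleen replicates 2 or 3, lymph node replicates 1 or 2).

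The sort gates of the tissues are described differently in the labels, so tissue and gate cannot be told apart. Of 9 tested migratory dendritic cell markers 5 were higher and 2 lower in lymph node in both genotypes, and they summed to 18928 to 20383 CPM in lymph node and 11788 to 13165 CPM in spleen of cKO mice, and to 18763 to 19482 and 10793 to 11961 CPM in controls. Of 13 cDC1 markers, 10 were lower and 1 higher in cKO and 9 were lower and 1 higher in control mice. T cell markers were higher in lymph node (7 of 9 in cKO, 8 of 9 in controls) and plasma cell markers lower (5 of 6 in cKO; 4 of 6, with 1 higher, in controls), with plasma sums of 146 to 168 against 2310 to 2585 CPM in cKO and of 146 to 149 against 1017 to 1184 CPM in controls. Erythroid markers, 4 of 7 of which were at 0 throughout lymph node controls, summed to 0.564 to 1.45 CPM in lymph node libraries and to 58.7 to 104 CPM in spleen libraries. The part of these in the heat shock differences was not tested.

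The tissue difference was not one of chaperones as a whole. Over all genes tested, 15.3% were lower and 14.1% higher in cKO, and 20.3% lower and 21.0% higher in control mice. ER chaperones were also lower in lymph node, 11 of 12 in cKO and 7 of 12 in control mice, led in cKO by Creld2 (-1.47) and by Pdia4 (-1.18) and Pdia6 (-1.10), which help disulfide bonds form; scaled by total counts these were 8 lower in cKO and 4 lower and 1 higher in controls. Other mitochondrial chaperones and proteases went the other way in control mice, with 8 of 14 higher (among them Clpb 1.42 and Dnaja3 1.16) and 0 lower. In cKO 3 of 14 were higher (Lonp1 0.83, Grpel1 0.42 and Trap1 0.37) and 0 lower, a share near that over all genes. Scaled by total counts, 6 in cKO and 11 in control mice were higher and 0 lower. The TRiC and prefoldin genes, which fold actin and tubulin, were mixed (2 higher and 1 lower of 14 in cKO, 4 and 2 in controls; 5 and 0, 11 and 0 by total counts), as were the J-domain genes (4 and 8 of 20 in cKO, 5 and 8 in controls; 5 and 3, 6 and 7 by total counts) and the HSF1 circuit and cytosolic co-chaperones (6 and 8 of 32 in cKO, 9 and 8 in controls; 9 and 3, 16 and 5 by total counts). The balance of these 3 lists thus depended on the scaling. Of 4 small heat shock protein genes tested, Hspb6 was higher in both genotypes (0.89 in cKO, 0.94 in controls), and Cryaa in controls. In the list of the HSF1 circuit and cytosolic co-chaperones, Cdc37, the co-chaperone that brings kinases to HSP90, was higher in lymph node (0.80 ± 0.07 in cKO, 1.04 ± 0.07 in controls), and Bag3 was lower (-0.90 ± 0.13 and -1.29 ± 0.13).

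Hsf1 RNA did not move with the members. It had 38.7, 32.8 and 32.6 CPM in lymph node and 22.2, 26.7 and 16.2 CPM in spleen libraries of cKO mice (0.44 ± 0.21, adjusted p = 0.142, edgeR's quasi-likelihood test), and 47.5, 32.5 and 35.7 CPM in lymph node and 8.1, 13.5 and 10.3 CPM in spleen libraries of controls (1.57 ± 0.22, adjusted p = 3.73e-05, same test). Lymph node libraries thus held more Hsf1 RNA and less RNA of the members than spleen libraries in controls. Immediate early genes were lower in lymph node for 19 of 22 genes in each genotype (17 in cKO and 16 in controls by total counts), with medians of -1.38 in cKO and -1.04 in control mice, led by Egr2 (-2.45), Fosb (-2.30) and Nr4a1 (-2.11) in cKO and Fosb (-2.61), Egr2 (-2.42) and Klf2 (-2) in controls. Their sums were 12043 to 13058 CPM in lymph node and 16770 to 18164 CPM in spleen of cKO mice, and 12950 to 14467 and 17110 to 17600 CPM in controls. Their part in the members' difference was not tested.

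Within groups of the tissue set the members did not vary together as 1 set, and some pairs varied in opposite directions. After each group's mean was taken off the log2 CPM (TMM-scaled, with 0.5 added), the 45 pairs of members had a median Pearson r of -0.07 over 12 libraries, from -0.83 to 0.80, with 22 pairs positive. The highest were those of Hspa1a with Hspa1b, whose sequences are nearly the same, and of Hspa8 with Hspd1, both at 0.80. The lowest were those of Hspa1a with Hspe1 (-0.83), Hspa1b with Hsp90aa1 (-0.82), Hsp90aa1 with Dnaja1 (-0.81) and Hspa1b with Hspe1 (-0.80). The genes whose deviations were most like the members' mean deviation, among 7575 ranked, were Adsl, Plp2 and Ntan1 (r = 0.88), Zfp212 (0.87) and Cacnb1 (0.84). With group means kept, so that the tissue difference set the order, they were Zcrb1, Apoe and Vcam1 (0.99), Ubxn4 and Sfr1 (0.98). These correlations describe libraries that share depth and preparation.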

How the data were processed

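The authors deposited whole-number read counts per gene, not normalized, in 3 separately counted tables, so groups were compared only within each. Per the submitters' processing notes, the tools were featureCounts, StringTie, HISAT2 and SAMtools, and the build GRCm38; per the file headers, featureCounts 2.0.3 was used for the EpoR set and featureCounts 2.0.8 with Ensembl annotation release 100 for the tissue set. Per the file headers these ran without strand information, and both reads of a pair may each be counted (2 counts), which makes floors there too low. Per the labels' protocols, tissue set libraries started from amplified cDNA of 10 ng of RNA.

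Symbols were found for 98.9%, 99.8% and 99.4% of identifiers, from the gene name table given with the reference. Genes that passed filterByExpr (at least 10 counts, total at least 15) were TMM-scaled and tested in R 4.3.3 with edgeR 4.0.16, quasi-likelihood with robust dispersion, with Benjamini-Hochberg adjustment across every tested gene and a threshold of 0.05. The treatment and EpoR sets were fitted on 4 libraries each and the tissue set on all 12. All 10 members passed the filter in each set. CPM are given over total counts, RPKM over the exonic lengths in the tables. Alternatives were DESeq2 1.42.0, RLE or total-count scaling, no filter, each replicate left out, a replicate block, only the 6 libraries compared, and Hspa1a with Hspa1b summed. The fits were tested on simulated data. The members, gene lists, tests and the rule for named genes were chosen with earlier results of these data known. That rule took the members, Hsf1, Bag3, Epor and Xcr1, up to 3 called genes without overlap per list and direction, and the 5 nearest patterns. Nr4a2, Grasp and Fosl2 and the ratios of Jun, Fos and Egr1 in the EpoR set were added after their values were seen. 1 result of the wider gene lists is not reported here.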

Additional observations from a re-analysis of the deposited data

How the results depend on the processing

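With any 1 library left out, the number of members called ran from 2 to 5 for TLI/ATS against untreated, from 0 to 1 for EpoR+ against EpoR-, from 1 to 4 for cKO against control in spleen, from 2 to 3 in lymph node, from 9 to 10 for lymph node against spleen in controls and at 10 in cKO mice, with 0 for the difference of the cKO effect. Elsewhere DESeq2 called 1 member in the EpoR comparison, 6 in spleen, 4 in lymph node and 2 for the difference; no filter called 6 in spleen and 1 for the difference; only the 6 libraries compared gave 5 in spleen. The replicate block called 3 in the EpoR comparison (Hspa8, Hsph1 and Dnaja1) and moved no other member count by over 1.5 times. Same-numbered EpoR+ and EpoR- libraries deviated together (r = 0.424), but with 2 pairs and no label this does not pair them; in the treatment set r was -0.0253 and in the tissue set -0.0567 to 0.043, where in 6 of 18 checks a library lay closest to its own number in another group.

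These values changed sign, and under the setting named each missed the threshold; in the reported fit Hspa8 had passed it and the others had not. Under total-count scaling they were Hspd1 (-0.09), Dnaja1 (-0.13) and Bag3 (-0.04) for TLI/ATS, Hspa8 for lymph node against spleen in controls (0.10) and Dnajb1 for the difference of the cKO effect (-0.02); under the replicate block, Dnaja1 for TLI/ATS (-0.01). With 1 library left out, ranges that crossed 0 were, for TLI/ATS, Hsph1 -0.12 to 0.02, Hspe1 -0.62 to 0.24, Hspd1 -0.05 to 0.14, Hsp90aa1 -0.36 to 0.14, Dnaja1 -0.22 to 0.21 and Bag3 -0.09 to 0.23. For EpoR+ they were Hspa1a -2.37 to 0.50, Hspa1b -2.89 to 0.62, Hspb1 -0.16 to 1.10, Dnajb1 -0.63 to 0.22 and Hsf1 -0.41 to 0.05. For cKO they were Dnaja1 -0.11 to 0.08 in spleen, and in lymph node Hsp90aa1 -0.17 to 0.04, Hsf1 -0.24 to 0.04 and Bag3 -0.06 to 0.10, and Dnajb1 -0.06 to 0.08 for the difference. The cause was not tested.

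Over all genes, 465 were called for TLI/ATS (1324 by DESeq2, 1264 with the block, 4908 and 4679 without TLI/ATS replicate 1 or 2) and 2606 for EpoR+ (5347 with the block, 1496 and 1454 without EpoR+ replicate 1 or 2). For cKO, 106 were called in spleen (436 unfiltered, 647 by DESeq2, 40 with the block, 31 to 379 with 1 library left out), 79 in lymph node (170 unfiltered, 204 by DESeq2, 44 with only the 6 libraries compared, 51 without control or cKO replicate 1) and 55 for the difference (364 unfiltered, 507 by DESeq2, 34 with the block, 29 to 222 with 1 library left out). Total-count scaling turned 85 higher and 21 lower in spleen into 102 and 9, and 22 and 33 for the difference into 15 and 41, and moved the median for TLI/ATS by -0.12. A fit that leaves 1 library in a group assumes that it varies like the others. Depth limits Hspb1 in the treatment set, near the floor.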
